A study of Rattus norvegicus with 29 samples.

Results

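The late-numbered rodent miRNAs are the rows of the plasma read count table whose names carry an miRBase number of 3000 or more, with the exception of miR-3591. They were picked by name alone, and 109 of 754 rows (14.5%) met the rule. They were set against the 626 rows with numbers under 3000, while 18 let-7 rows and miR-3591 were placed in neither class. Of the 109 rows, 18 had numbers from 3000 to below 3500, 65 from 3500 to below 3600, 2 from 3600 to below 6000 and 24 of 6000 or more. 2 rows carried joined names of the miR-3084 family, whose members the counting did not separate.

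miRNAs are short RNAs that guide silencing proteins to messenger RNAs, mainly through the seed near their 5′ end. miRBase numbers them in the order in which they were entered, so that the low numbers hold abundant and conserved miRNAs, whereas the high numbers come largely from deep sequencing and are often specific to rodents or to the rat. A mature miRNA can also be read from the strand opposite to a known miRNA gene, and such a miRNA has the reverse complement of the older sequence. Cells, platelets and injured tissue release miRNAs into plasma.

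Plasma was collected 48 h after operation from 29 adult male Sprague-Dawley rats under a protocol shared by 3 laboratories, UEF (12 rats), Monash (8 rats) and UCLA (9 rats). The sham group (10 rats: 4 UEF, 3 Monash, 3 UCLA) had the anesthesia and surgery but no impact. The injured rats received lateral fluid-percussion traumatic brain injury (TBI) and were later labelled TBIN, no epilepsy (10 rats: 4, 3 and 3), or TBIE, epilepsy (9 rats: 4, 2 and 3). The laboratory stands for animals, housing, feeding, surgery, drugs after surgery and blood sampling at once, which cannot be told apart here. The paper lists buprenorphine at UEF and Monash, but flunixin meglumine and antibiotic chow at UCLA. TBIN and TBIE rats had the same kind of injury when the blood was drawn.

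The total count per rat ranged from 1162307 to 5223469 with a median of 2713557. Levels are given in CPM, each rat's counts brought to a common total and scaled with TMM, which aligns the bulk of the rows between libraries. UEF sham 3 had the highest total and the lowest TMM factor (0.333), which raised its CPM. The red cell, liver, platelet and white cell, neuron and muscle miRNA lists (18 rows in all) had 10 or more counts in every rat. Some libraries went against their site labels, among them those of all 5 TBIE rats of Monash and UCLA. Over the 669 rows with a mean of at least 10 CPM, each of the 12 sham and TBIN rats of Monash and UCLA was closest to the mean profile of the sham and TBIN rats of its own site, but none of the 5 TBIE rats of these sites was. All 3 UCLA TBIE rats were closest to Monash, 1 Monash TBIE rat was closest to UEF and the other to UCLA. Over the 97 late rows of that level, all 3 UCLA TBIE rats were again closest to Monash, and both Monash TBIE rats were closest to UEF. UEF and UCLA were nearly tied for Monash TBIE 1 (0.479 and 0.487, Monash 0.720) and Monash TBIE 2 (0.786 and 0.788, Monash 0.990). Monash TBIN 2 and UCLA TBIN 2 were also closest to UEF, so that 10 of the 12 sham and TBIN rats were closest to their own site. At UEF, 9 of 12 rats were closest to their own site over either set of rows. Over the 669 rows, UEF TBIN 1 (0.661, UEF 0.771) and UEF TBIE 4 (0.730, UEF 0.804) were closest to UCLA. UEF TBIN 2 (0.895, UEF 0.949) was closest to Monash. Site results below are therefore given with all rats and without the 5 TBIE rats of Monash and UCLA. The UEF rats were kept in both.

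RefSeq (GRCr8) held mature sequences for 98 of the 109 members. They had a median length of 22 nt and a median GC content of 50%, against 47.6% for the 565 earlier rows with a sequence. Seeds, bases 2 to 8, were compared with those of the earlier rows, the let-7 rows and miR-3591. Only 4 of the 98 (4.08%; miR-3065-5p, miR-3084c-3p, miR-3573-5p and miR-3596d) shared their seed with such a row. Of the 565 earlier rows, 148 (26.2%) shared theirs with another such row. Reverse complements were searched for with no mismatch over at least 16 bases. For the members, only partners numbered under 3000 or let-7 were sought, and they were found for 32 of the 98 (32.7%). Among the earlier rows, 26 of 565 (4.60%) had such a partner. Earlier rows whose longest match had a number of 3000 or more were not counted, so the shares are not counted alike. Of these 32 members, 29 were numbered from 3500 to below 3600 and 3 from 3000 to below 3500, and 0 of the members numbered 3600 or more were reverse complements.

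The 5 pairs below are shown because their levels are compared rat by rat. Each sequence runs 5′ to 3′ and the capitals mark the seed. The member and its older partner read the same bases from opposite strands, so that their seeds lie at opposite ends and differ.
miR-3596a: aACUAUACaaccuacuaccuca
let-7a-5p: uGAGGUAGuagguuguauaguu
miR-3588: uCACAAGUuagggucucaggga
miR-125b-5p: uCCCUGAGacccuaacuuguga
miR-3557-5p: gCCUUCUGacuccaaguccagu
miR-378a-3p: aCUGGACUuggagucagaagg
miR-3571: uACACACUucuuuacauuccaua
miR-1-3p: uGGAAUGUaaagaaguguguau
miR-3543: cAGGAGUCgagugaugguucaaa
miR-434-3p: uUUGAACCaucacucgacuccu

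In GRCr8, miR-3596a lies at chr8:50805219-50805240 on the minus strand, within Mir100hgl and opposite the hairpin of let-7a-2. miR-3588 lies at chr11:29732588-29732609 on the minus strand, at the same bases as miR-125b-5p on the plus strand. miR-3557-5p lies at chr18:57128924-57128945 on the plus strand within Ppargc1b, a transcriptional coactivator gene of energy metabolism that also hosts miR-378a. miR-3571 lies at chr18:2160340-2160362 on the plus strand within Mib1, opposite the hairpin of miR-1. miR-3543 lies at chr6:134330451-134330473 on the minus strand within Rtl1, opposite the miR-434 hairpin, in the imprinted region where that paternally expressed gene sits. These coordinates come from RefSeq, while the reads had been mapped to the older build Rnor_6.0.

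The second set is shown because these members carried the results on injury and on site. Capitals mark the seed again.
miR-3473: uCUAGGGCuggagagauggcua
miR-3550: cCGAGCCCaucccugcccuag
miR-6326: cUGGUCUGuaaagggacacagca
miR-3068-3p: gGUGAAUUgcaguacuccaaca
miR-3561-5p: aCUGUGUCaauccaggguaga
miR-6330: uAUAAUGAccagaucuggguca

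miR-3473 lies at chr13:42051730-42051751 on the plus strand within Zranb3, and miR-3550 at chr19:40133568-40133588 within MAST1. A stretch of 16 bases of miR-3473, shown in capitals in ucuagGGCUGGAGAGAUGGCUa, was also met as DNA (GGCTGGAGAGATGGCT, either strand) in 92 of 33469 rat promoter windows (0.275%). Of the other 97 members with a sequence, 91 had no stretch of 16 bases in any such window and 6 had one in 1 to 9 windows. The match is a description of how often the letters recur, and reads from such repeated sequence can be assigned to miR-3473 without having come from its locus.

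Late-numbered miRNAs were present at low levels in all rats. Their median mean level was 20.02 CPM against 38.6 CPM for the rows numbered under 3000, and the median over late rows was below the median over earlier rows in 29 of 29 rats. Only 16 of 109 (14.7%) exceeded 100 CPM, against 28.9% of the earlier rows, and 2 (1.83%) exceeded 1000 CPM, against 9.90%. The 109 rows held 0.831% ± 0.218 (SD, n = 29) of each rat's counts, with a range of 0.520% to 1.34%. This share was 0.883% ± 0.206 in sham rats (n = 10) and 0.804% ± 0.225 in TBI rats (n = 19), and the ranges overlapped.

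**Figure D1:**
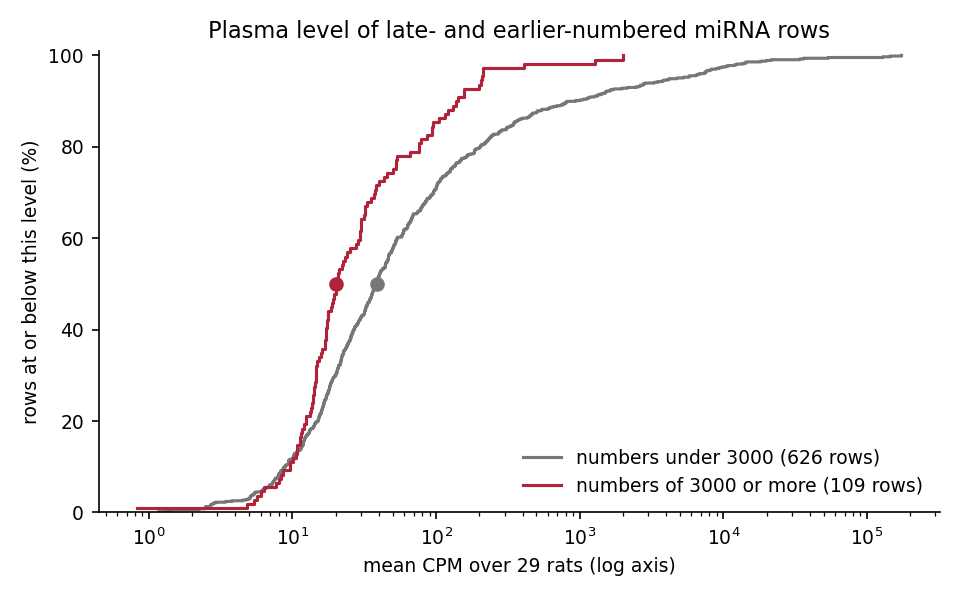
Mean level over 29 rats (x axis, CPM, log scale) and the percent of rows at or below it (y axis) for the 109 late-numbered rows and the 626 rows numbered under 3000. The dots mark the medians, 20.02 and 38.6 CPM, and the late curve ends at 2011 CPM while the earlier one runs on to far higher levels.

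The late counts came mostly from a few rows. miR-3473 had 2011 ± 1352 CPM (SD, n = 29; lowest 772, median 1650, highest 7596) and by itself made up 23.3% of the late counts of a rat on average, between 11.2% and 48.0%. miR-3596a, the reverse complement of let-7a-5p, followed at 1275 ± 515 CPM (600 to 2415, median 1167), and miR-3596d, opposite let-7f-5p, at 411 ± 82.8 CPM. miR-3596a to miR-3596d together held 23.5% of the pooled late counts, and the 32 reverse-complement members 40.8%. Next came miR-3561-3p (213 ± 88.4 CPM), miR-3068-3p (212 ± 122 CPM), miR-3588 (208 ± 99.8 CPM, opposite miR-125b-5p), miR-3571 (205 ± 295 CPM, opposite the muscle miRNA miR-1-3p) and miR-3556b (199 ± 119 CPM, opposite miR-29c-3p). The 8 highest rows took 56.9% of the late counts.

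At the other end, miR-3579 was listed at 0.825 CPM, with 10 or more counts in 3 rats and a highest count of 17. It did not pass the filter on low counts in the additive fit, but was kept in the interaction fits. miR-3576 reached 4.81 ± 3.15 CPM and miR-3585-5p 5.38 ± 3.84 CPM, and both were at 0 counts in at least 1 rat. Around the number at which the class begins, miR-2985 had 36.0 ± 16.5 CPM, while miR-3064-3p had 32.1 ± 19.3 CPM and miR-3064-5p 10.1 ± 5.89 CPM.

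Most late rows were nevertheless detected. With 10 counts as the limit, 104.3 ± 4.05 of the 109 rows (95.7%) were detected per rat (lowest 94, median 105, highest 108), against 95.2% of the earlier rows. 75 rows (68.8%) reached 10 counts in every rat, against 79.1% of the earlier rows. After every library was thinned to the lowest total, the number of late rows with 10 counts was 90.4 ± 17.7 in UEF rats, 89.5 ± 11.2 in Monash rats and 90.6 ± 14.0 in UCLA rats. Of the 626 earlier rows, 539.5 ± 74.2, 541.9 ± 42.4 and 540.1 ± 45.5 then had 10 counts, so that the late rows kept the smaller share. The spread between rats of one group was alike in both classes, with a median residual SD of 0.54 on the log2 scale in each.

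By number block, the median level was 17.2 CPM from 3000 to below 3500, 22.6 CPM from 3500 to below 3600 and 17.6 CPM from 6000 on. Both arms of the hairpin were in the table for 18 loci. The 5p arm was higher in every rat for miR-3557, miR-3558, miR-3583 and miR-3584, the 3p arm was higher in every rat for miR-3561, miR-3585 and miR-5132, and the order varied between rats for 10. For miR-3064 the 3p arm was higher in 28 rats and equal to the 5p arm in 1. The arm difference was 3.09 ± 0.65 (log2 of 5p to 3p, SD, n = 29) for miR-3583 and -2.85 ± 0.36 for miR-3561.

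The 32 reverse-complement members were ordered much as their older partners. Across the pairs, the Spearman correlation of the mean levels was 0.835, a description over 32 pairs measured in the same libraries. The member was below its partner in 28 pairs and above it in 4, and the median member stood at 29.6% of its partner, from 1.31% (miR-3556a of miR-29a-3p) to 723% (miR-3546 of miR-208a-5p, itself at 5.06 CPM). The most abundant partners were let-7a-5p at 11926 CPM, let-7f-5p at 8245 CPM and miR-29a-3p at 7560 CPM. The sources used here do not state whether the strand of the read was used in counting, and without strand, reads of a miRNA and of its antisense partner cannot be told apart.

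**Figure D2:**
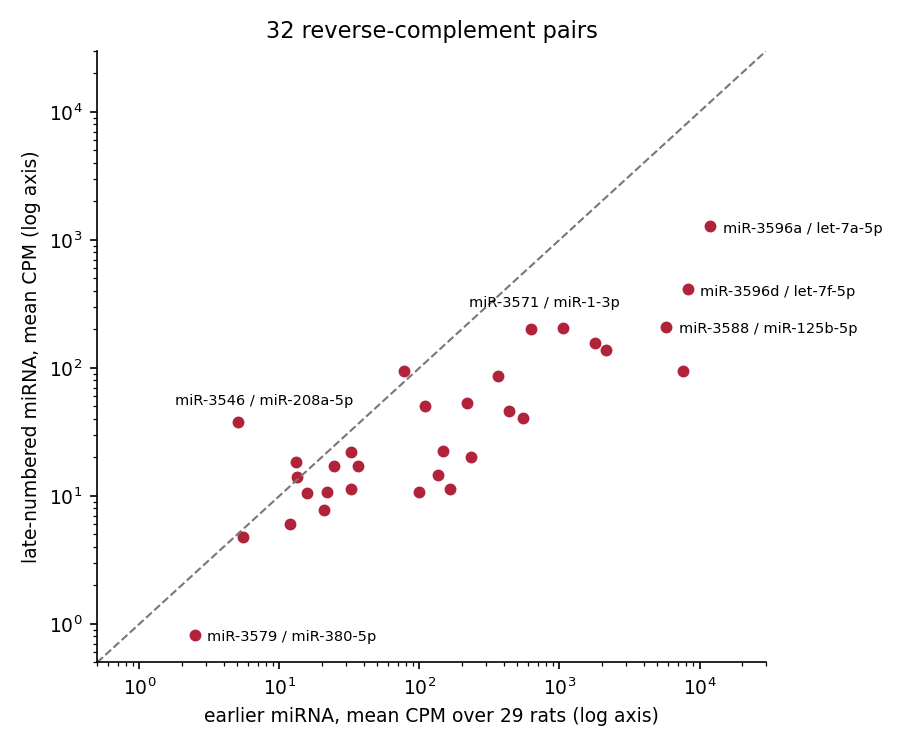
Mean level over 29 rats of each of 32 late-numbered miRNAs (y axis, CPM, log scale) against the earlier miRNA of which it is the reverse complement (x axis, CPM, log scale). The dashed line marks equal levels; 28 points lie below it and 4 above.

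Some pairs kept a narrow ratio from rat to rat, and the examples were chosen after their values were seen. miR-3596a stood at 7.79% to 14.3% of let-7a-5p in the 29 rats (median 10.9%), although let-7a-5p itself spanned 5508 to 24488 CPM. miR-3588 stood at 3.17% to 5.90% of miR-125b-5p, and miR-3557-5p at 4.60% to 9.05% of miR-378a-3p. The SD of the log2 ratio for miR-3557-5p was 0.20, against 0.81 for the member and 0.87 for the partner alone, and the counting error of that ratio was 0.09. For miR-3588 the ratio SD was 0.22, against 0.60 and 0.67. Of the 12 pairs whose member averaged 50 CPM or more, the ratio varied less than both members of the pair in 7. Among the 20 pairs with lower members this was so in 2, and the median counting error of their ratio was 0.34.

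Other pairs did not hold a constant ratio. miR-3571 stood at 10.5% of miR-1-3p in Monash TBIN 1, where miR-1-3p was at 12480 CPM, but at 368% in UEF TBIN 3, where it was at 81.0 CPM. miR-3596d varied little (SD 0.29 on the log2 scale) while let-7f-5p varied more (0.88), and the SD of their ratio was 0.80. miR-3589 was above miR-505-3p in 19 rats and below or equal in the others. For the pairs known from mammalian genomes as opposite-strand genes, miR-3065-5p and miR-3065-3p stood at 46.4% of miR-338-3p and 70.5% of miR-338-5p, and miR-3074 at 67.3% of miR-24-1-5p. miR-3120 lies opposite the miR-214 hairpin in GRCr8 but was not among the reverse-complement members that the search found. It had 15.3 ± 6.91 CPM, while miR-214-3p had 349 ± 237 CPM and miR-214-5p 6.41 ± 4.50 CPM.

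**Figure D3:**
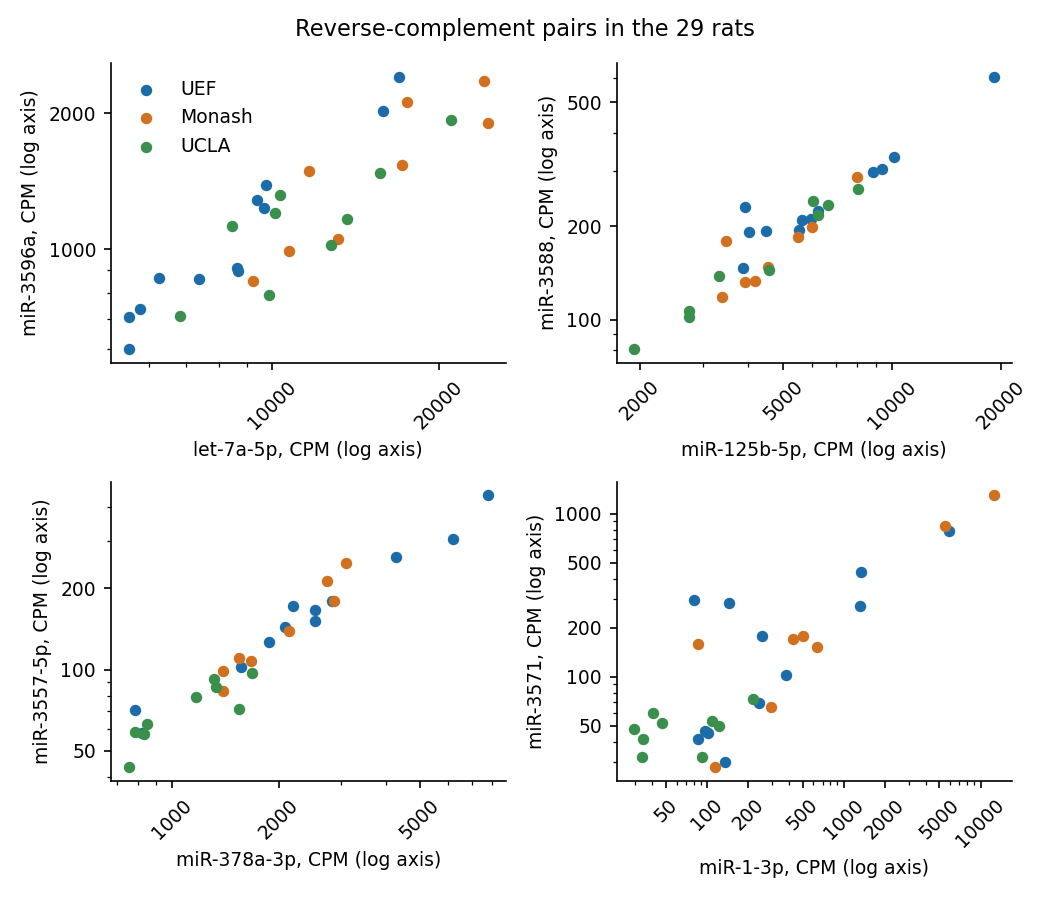
CPM of 4 late-numbered miRNAs (y axes, log scale) against their reverse-complement partners (x axes, log scale), 1 point per rat, colored by site. miR-3596a, miR-3588 and miR-3557-5p lie along a line, while miR-3571 follows miR-1-3p in the rats with the highest miR-1-3p and scatters among the others.

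The first comparison asked which late miRNAs differed between TBI and sham plasma. None of 108 tested members passed an adjusted p of 0.05 (edgeR quasi-likelihood test with site in the model, Benjamini-Hochberg over 751 rows), against a background of 1.2% of all rows. At an unadjusted p under 0.05 there were 10, 1 higher and 9 lower after TBI (9.26%, against 11.2% of all rows). In the lower direction alone, 0.533% of all rows passed the adjusted p. DESeq2 called 2, miR-3550 and miR-3473, among 25 of all 751 rows. The median log2 fold change was -0.05 over the members, 0.04 over the earlier rows and 0.03 over all rows.

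miR-3550 had the lowest p. It ranged from 12.5 to 66.7 CPM in sham rats (median 31.6) and from 7.57 to 34.8 CPM in TBI rats (median 19.3), so that the groups overlapped. Its log2 fold change was -0.85 (SE 0.25, edgeR adjusted p = 0.0774). The result depended on single rats, with an adjusted p of 0.0366 without UCLA sham 1 and 0.268 without UCLA sham 3. With DESeq2 the adjusted p was 0.0215.

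miR-3473 ranged from 1235 to 7596 CPM in sham rats (median 1863) and from 772 to 2553 CPM in TBI rats (median 1508). The fitted change was -0.82 on the log2 scale (SE 0.27; adjusted p = 0.134 with edgeR and 0.0421 with DESeq2). The values at UEF were farthest apart. There the 4 sham rats had 1447, 4867, 7596 and 3252 CPM, and the 8 TBI rats ranged from 772 to 2163 CPM with a median of 1110. The 7596 CPM of UEF sham 3 stood for 13225 of 5223469 counts, raised by its TMM factor of 0.333. At Monash the sham rats spanned 1622 to 2803 CPM and the TBI rats 1448 to 2154 CPM, and at UCLA 1235 to 1942 CPM and 1229 to 2553 CPM, overlapping at every site. In the interaction fit the log2 fold change was -1.83 (SE 0.32) at UEF, -0.20 (SE 0.39) at Monash and 0.27 (SE 0.38) at UCLA.

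miR-3473 was the 1 member of 109 whose TBI effect differed between sites (edgeR interaction, adjusted p = 0.0483), against 0.928% of all rows. At an unadjusted p under 0.05 there were 15 members and 13.7% of all rows. The call was lost in 25 of 29 fits that left out a single rat, with an adjusted p of up to 0.359 without UEF sham 3, and without the 5 TBIE rats of Monash and UCLA the adjusted p was 0.188. Marker lists also differed between these rats. The summed level of the liver list (2 of 2 rows, miR-122-5p and miR-192-5p) was 295635 to 1725746 CPM in the 4 UEF sham rats and 30183 to 270356 CPM in the 8 UEF TBI rats, with no overlap, against 9493 to 26087 CPM in all UCLA rats. The neuron list (4 of 4 rows) summed to 2363 to 3430 CPM in the UEF sham rats and 3884 to 10547 CPM in the UEF TBI rats, again with no overlap but higher after TBI. The red cell list (5 of 5 rows) spanned 128685 to 204650 CPM and 167658 to 632821 CPM and overlapped, as did the platelet and white cell list and the muscle list. Such overlap was not counted over all rows, so these list values are a description. The highest liver value belonged to UEF sham 3, whose TMM factor of 0.333 raised its CPM. The part of these lists in the miR-3473 result was not tested.

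miR-3593-5p ranged from 33.2 to 83.9 CPM in sham rats (median 39.1) and from 13.5 to 54.5 CPM in TBI rats (median 28.05). The fitted change was -0.53 (log2, SE 0.19; adjusted p = 0.190 with edgeR). Without the 5 TBIE rats of Monash and UCLA it became the 1 member called, at -0.75 (SE 0.19, edgeR adjusted p = 0.0230), with a background of 2.8% in that fit.

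**Figure D4:**
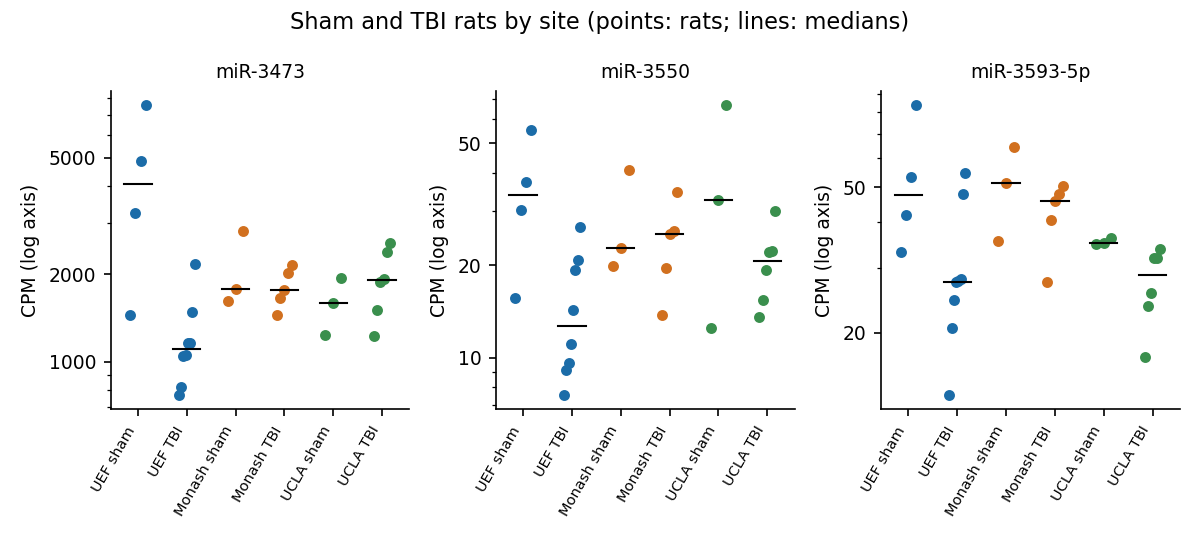
CPM (log scale) of miR-3473, miR-3550 and miR-3593-5p in sham and TBI rats of each site, 1 point per rat with a line at the median. For miR-3473, 3 of 4 UEF sham rats lie above all other UEF rats, while sham and TBI rats overlap at Monash and UCLA.

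Among the reverse-complement pairs, the partner miR-434-3p, a miRNA of the imprinted Rtl1 locus that is abundant in brain, was higher after TBI (log2 fold change 1.19, edgeR adjusted p = 0.0172). By site, miR-434-3p changed by 2.22 (SE 0.37) at UEF, 0.59 (SE 0.40) at Monash and 0.60 (SE 0.39) at UCLA. Its late-numbered partner miR-3543 had a log2 fold change of 1.03 and did not pass (adjusted p = 0.605). miR-3543 spanned 5.08 to 46.4 CPM in sham rats and 12.0 to 966 CPM in TBI rats. The highest value came from Monash TBIN 2 alone, with 3137 counts, and every other rat was at or below 46.4 CPM. In that rat miR-3543 stood at 308% of miR-434-3p, while the median over rats was 9.26%.

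No member differed between TBIE and TBIN rats over all sites. The count was 0 of 108 (0% of all 751 rows), 2 members (1.85%) and 2% of all rows had an unadjusted p under 0.05, and DESeq2 called none. The lowest p belonged to miR-3543 (log2 fold change -1.54, SE 0.74), miR-3551-5p (1.12, SE 0.54) and miR-3594-3p (-0.63, SE 0.31), each at an edgeR adjusted p of 0.998. The first 2 rested on single rats. miR-3543 fell to -0.17 without Monash TBIN 2, and miR-3551-5p to 0.11 without Monash TBIE 2, which had 207 CPM where the other 28 rats had 3.99 to 41.8 CPM.

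When each site was allowed its own difference between TBIE and TBIN rats, 9 of 109 members (8.26%) differed between the sites (edgeR interaction over 754 rows, adjusted p under 0.05), against 9.02% of all rows. This comparison was added after the data had been seen. The 9 were miR-6318, miR-3068-3p, miR-6326, miR-3561-5p, miR-3584-3p, miR-3561-3p, miR-3578, miR-6329 and miR-3559-5p. In all 9, as in 68 of 68 rows called, the fitted TBIE to TBIN values at Monash and UCLA had opposite signs. Within the sites the difference passed at both for miR-6318 and miR-3068-3p, at 1 of them for 6 members and at neither for miR-3559-5p (edgeR adjusted p = 0.135 at Monash and 0.118 at UCLA). At UEF no member was called for this difference (edgeR), and 1 had an unadjusted p under 0.05.

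miR-6318 had the lowest p. It stood at 112 and 114 CPM in the 2 Monash TBIE rats, against 16.6 to 47.1 CPM in the 6 Monash sham and TBIN rats (median 22.1). At UCLA it was the other way round, with 15.4, 24.0 and 24.4 CPM in the 3 TBIE rats and 53.2 to 139 CPM in the 6 sham and TBIN rats (median 110). The 12 UEF rats spanned 55.9 to 169 CPM (median 84.3). TBIE differed from TBIN by 2.01 (log2, SE 0.46) at Monash, -2.49 (SE 0.44) at UCLA and 0.13 at UEF, and the test across sites gave an adjusted p of 3.8e-05.

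miR-3068-3p, from a hairpin inside Alkbh1, a nucleic acid demethylase gene, had the same order. The 2 Monash TBIE rats were at 312 and 330 CPM and the 6 other Monash rats at 51.1 to 91.1 CPM, while the 3 UCLA TBIE rats were at 62.6, 70.8 and 81.3 CPM and the 6 other UCLA rats at 169 to 354 CPM. TBIE rats did not overlap with the others at either site (edgeR adjusted p = 9.3e-05 across sites). miR-6326 gave 13.0 and 26.4 CPM in the Monash TBIE rats against 3.31 to 9.88 CPM, and 3.86, 4.56 and 5.64 CPM in the UCLA TBIE rats against 19.0 to 33.1 CPM. Here too there was no overlap (edgeR adjusted p = 0.00052).

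miR-3561-5p was at 38.7 and 41.5 CPM in the Monash TBIE rats and at 9.55 to 13.9 CPM in the 6 others, whereas at UCLA the TBIE rats (17.86, 20.999 and 21.03 CPM) lay just below the others (24.0 to 40.9 CPM; edgeR adjusted p = 0.0039 across sites). miR-3559-5p ran the opposite way, with 44.3 and 44.4 CPM in the Monash TBIE rats against 66.5 to 126 CPM, and 110 to 219 CPM in the UCLA TBIE rats against 57.5 to 98.4 CPM (edgeR adjusted p = 0.0309 across sites). For each of these 5, no Monash or UCLA sham rat overlapped with the TBIE rats of its site. Of the 9 called members only miR-6329 overlapped, at UCLA (sham 11.9 to 22.4 CPM, TBIE 9.40 to 12.6 CPM). The members were picked by their TBIE values, and such overlap was not counted over all rows, so this is a description. Outcome group, an exchange of site labels among these 5 libraries and any handling specific to the TBIE samples of a site cannot be told apart, and the site values with all rats hold only if the labels are right.

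**Figure D5:**
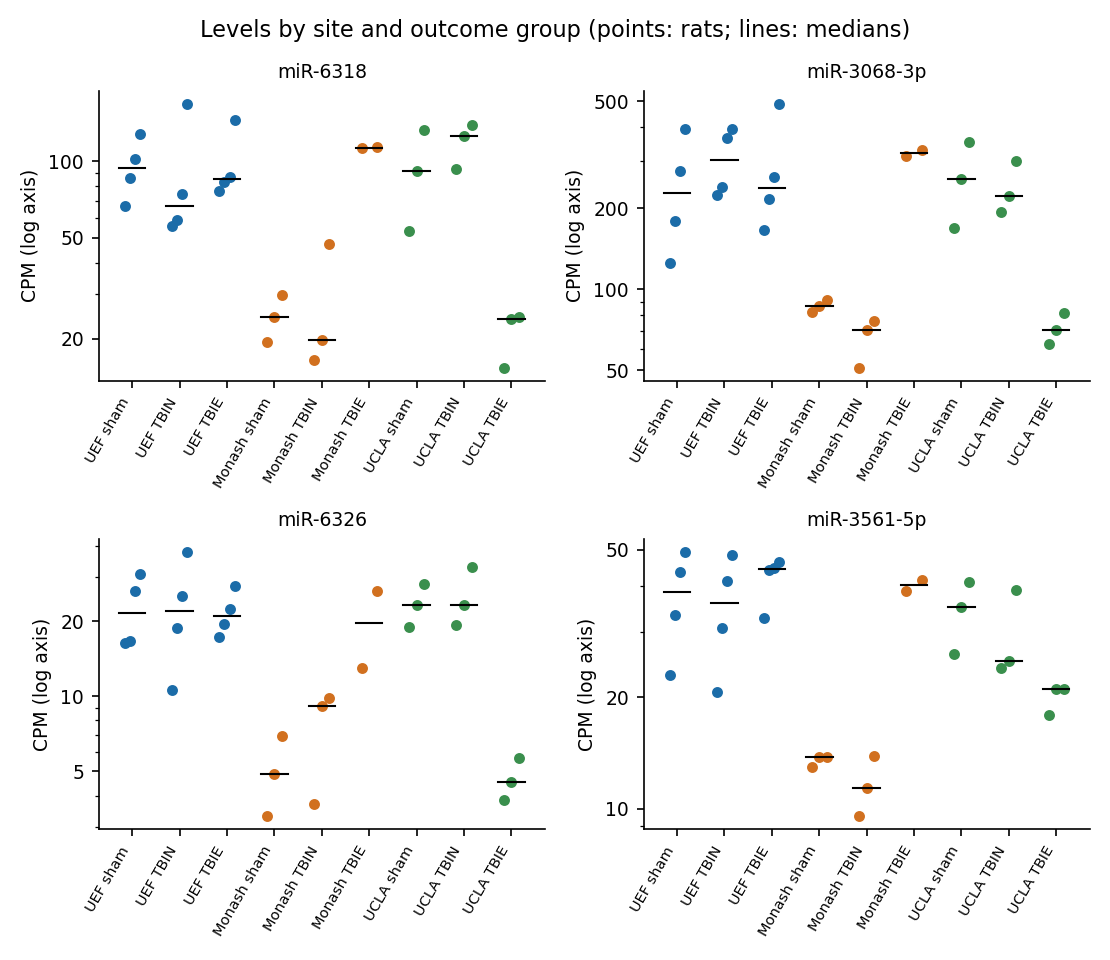
CPM (log scale) of miR-6318, miR-3068-3p, miR-6326 and miR-3561-5p in the 9 groups of site and outcome, 1 point per rat with a line at the median. Monash TBIE rats lie at the level of UEF rats, and UCLA TBIE rats lie below the other UCLA rats.

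The comparison of the 3 sites asked how far late miRNAs depended on the laboratory. With all rats, 6 of 108 members (5.56%) differed between the sites (edgeR, adjusted p under 0.05), against 14.6% of all rows and 16.5% of the earlier rows. With the earlier rows weighted to the abundance of the late ones, 13.6% were called. At 50 CPM and above, 7.14% of members and 25.3% of earlier rows were called. Without the 5 TBIE rats of Monash and UCLA, the counts rose to 24 of 108 members (22.2%), against 27.2% of all rows and 27.9% of the earlier rows. These 24 included the 6 called with all rats. The 5 rats were left out because they lay away from the profile of their site, which by itself favors more differences between sites, so the counts without them are a description.

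The site pairs changed in the same way, except UEF against UCLA. UEF and Monash differed in 6 members with all rats, 2 of them lower at UEF (background 9.45%, and 5.46% lower at UEF). Without the 5 rats they differed in 17 (background 20.1%), 15 of them higher at UEF, as were 95 of the 151 rows called. UEF and UCLA differed in 4 (background 9.05%) and in 3 without the 5 rats (background 7.59%). Monash and UCLA differed in 2, 1 in each direction (background 5.59%, of which 3.2% higher and 2.4% lower at Monash). Without the 5 rats they differed in 29 (background 24%), 10 higher and 19 lower at Monash, against 76 higher and 104 lower among all rows called. With all rats these pair counts also moved by more than 1.5 times when single rats were left out, between 2 and 12, 2 and 6, and 0 and 5. For UEF against Monash, 26.8% of all rows had an unadjusted p under 0.05.

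miR-6330, whose hairpin lies within Nek11, a kinase gene, had the lowest p across the sites (edgeR adjusted p = 0.0024). It was at 2.57 to 11.8 CPM at UEF (median 5.85), at 6.70 to 28.7 CPM at Monash (median 19.7) and at 4.84 to 27.3 CPM at UCLA (median 14.6). On the log2 scale, UEF differed from Monash by -1.60 (SE 0.33; edgeR adjusted p = 0.0053) and from UCLA by -1.13 (SE 0.32; adjusted p = 0.0211). Without the 5 TBIE rats the first was -1.80, and the second, at -0.69, no longer passed (adjusted p = 0.262). The 2 lowest Monash values and the 2 highest UCLA values belonged to TBIE rats.

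miR-6334 was lower at UEF (15.5 to 33.9 CPM, median 20.2) than at Monash (25.6 to 96.1 CPM, median 33.8), with a difference of -0.95 (log2, SE 0.21; adjusted p = 0.0104 with edgeR), or -0.66 without Monash TBIN 2, which had 96.1 CPM. miR-3561-5p was higher at UEF (20.6 to 49.3 CPM, median 42.4) than at Monash (9.55 to 41.5 CPM, median 13.8), at 1.02 (SE 0.26, edgeR adjusted p = 0.0162) with all rats and 1.54 without the 5. miR-3589 (0.72, SE 0.22), miR-6326 (1.21, SE 0.39) and miR-6314 (1.24, SE 0.40) were also higher at UEF than at Monash, with edgeR adjusted p of 0.0378, 0.0438 and 0.0446. These 3 calls were lost in 18, 18 and 22 of 29 fits that left out a single rat, and the miR-6314 value was 0.69 without UEF sham 2, which had 127 CPM. All of these ranges overlapped.

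3 of the 6 site-dependent members were reverse-complement members, and the older partner of each was called as well. miR-3557-5p was higher at UEF (58.3 to 444 CPM, median 159) than at UCLA (43.3 to 96.7 CPM, median 71.1). The difference was 1.25 (log2, SE 0.28; adjusted p = 0.0033 with edgeR). Its partner miR-378a-3p had 1.26 in the same contrast. Of 31 tested pairs, 7 partners and 3 members were called across the 3 sites. Member and partner had the same sign in 22 pairs for UEF against Monash, 21 for UEF against UCLA and 20 for Monash against UCLA. For TBI against sham this was so in 19 pairs.

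miR-3574 differed by -0.82 between UEF and UCLA (log2, SE 0.25; adjusted p = 0.0317 with edgeR), where its partner miR-210-3p, a miRNA induced by low oxygen, had -0.85. Monash differed from UCLA by -0.96 (SE 0.29; adjusted p = 0.0405). It was at 9.67 to 25.05 CPM at UEF, 8.32 to 21.8 CPM at Monash and 14.3 to 93.8 CPM at UCLA. The highest value came from UCLA sham 3, and without this rat the differences were -0.52 and -0.65, and neither passed (adjusted p = 0.180 and 0.167).

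miR-3571 stood at 29.9 to 785 CPM at UEF (median 141), 27.8 to 1304 CPM at Monash (median 166) and 32.1 to 73.6 CPM at UCLA (median 49.7). Monash exceeded UCLA by 2.76 (log2, SE 0.69; adjusted p = 0.0168 with edgeR) and UEF exceeded UCLA by 2.06 (SE 0.63; adjusted p = 0.0331), and all 3 ranges overlapped. The first call was lost in 2 and the second in 12 of 29 fits that left out a single rat. Without the 5 TBIE rats the first stood at 3.08 (adjusted p = 0.0201) and the second at 2.09 (adjusted p = 0.158). For miR-1-3p, its partner, the values with all rats were 4.52 and 2.98. The muscle list (3 of 3 rows, miR-1-3p, miR-133a-3p and miR-206-3p) summed to 648 to 52702 CPM at UEF, 749 to 40984 CPM at Monash and 267 to 1079 CPM at UCLA, and its part in the miR-3571 result was not tested.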

How the data were processed

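Small RNA was measured in plasma of 29 rats. The authors made QIASeq miRNA libraries, sequenced them on a NextSeq 550 in single-end 75 bp reads, trimmed them with cutadapt, identified the unique molecular indices and mapped the reads with bowtie to Rnor_6.0 and miRBase 21. The values deposited by the authors are raw counts per miRNA. Versions of cutadapt and bowtie, whether counts are reads or unique molecules and whether strand was used are not given in the sources used here. All 29 count columns matched a sample title, and 0 columns were left unused. Rats are the replicates and SD is the spread between rats.

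Counts were tested with edgeR 4.0.16 in R 4.3.3 (rows kept by filterByExpr at 10 counts, TMM scaling, robust quasi-likelihood F test, site and condition as terms, TBI as the mean of TBIN and TBIE, Benjamini-Hochberg over all rows, threshold 0.05). DESeq2 1.42.0, the tool of the study, served as an alternative. The filter kept 108 of 109 members in the additive fit. log2 CPM used a prior count of 2. The fits were tested on simulated data. Sequences, hosts and promoter windows came from RefSeq GRCr8 and were matched by name, with reverse complements required to overlap by 16 bases without mismatch. Distances to site profiles used log2(CPM + 1).

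Members named with values were the 8 highest and 3 lowest in mean CPM, those past the threshold in each comparison (or the 3 with the lowest p), opposite-strand pairs, both-arm loci and the rows next to number 3000. Pair examples and the members of the added TBIE by site comparison were chosen after their values were seen. Members and lists were chosen with earlier results of these data known.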

Additional observations from a re-analysis of the deposited data

Results flagged for a closer look

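Of 170 groups of 4 to 10 rats, 13 held a rat far from the others, by its gap to the nearest rat relative to the whole range. Chance gives about 1 in 20 among separate groups. Here the same rat counted in its site group and in its outcome group, so the 13 cannot be weighed against that share. 8 of the 13 came from Monash TBIN 2. In log2 CPM, that rat had 9.92 for miR-3543 among TBIN and among Monash rats (next highest 5.18 and 5.03), 6.60 for miR-6334 in the same groups, 3.18 for miR-3574 among Monash rats, and among TBIN rats the lowest levels of miR-3561-3p (6.03), miR-3065-3p (2.59) and miR-3576 (-0.36, which is 0 counts). Monash TBIE 2 had 7.70 for miR-3551-5p among TBIE and among Monash rats, and UCLA TBIE 1 had 5.12 among UCLA rats. UEF sham 2 had 6.99 for miR-6314 among sham rats, and UCLA sham 1 had 4.14 for miR-6334, the lowest of the UCLA rats.

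Effects that differed between sites were tested with edgeR interaction terms. The TBI effect on miR-3473 differed (adjusted p = 0.0483). The difference between TBIE and TBIN rats depended on site for miR-6318 (adjusted p = 3.8e-05), miR-3068-3p (9.3e-05), miR-6326 (0.00052), miR-3561-5p (0.0039), miR-3584-3p (0.0048), miR-3561-3p (0.0107), miR-3578 (0.0141), miR-6329 (0.0231) and miR-3559-5p (0.0309).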

How the results depend on the processing

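Counts in parentheses are over all rows. Leaving out the 5 Monash and UCLA TBIE rats, chosen after the data had been seen, gave 1 for TBI against sham (21) and 24 for the 3 sites (204). It also gave 17 for UEF against Monash (151), 29 for Monash against UCLA (180) and 0 for the TBI effect by site (0). The DESeq2 test gave 2 for TBI (25 of all rows), 13 for the 3 sites (157), 6 for Monash against UCLA (59), 5 for the TBI effect by site (17) and 19 for TBIE against TBIN by site (109). Requiring 10 counts in every rat gave 1 for TBI (17 of all rows), 3 for UEF against Monash (54), 4 for Monash against UCLA (46) and 0 for the TBI effect by site (3), with 588 rows tested. The TBI effect by site also gave 0 with DESeq2 size factors (5), upper-quartile scaling (5), thinning to the lowest total (3) and the replicate block (0). With the miR-451-5p to miR-23a-3p ratio (a hemolysis measure) as a covariate it gave 0 as well (0). This covariate also gave 0 for Monash against UCLA (23). Replicate numbers did not pair the rats (mean correlation of the deviations of same-numbered rats -0.03 within and -0.01 between sites). The replicate block further gave 3 for UEF against Monash (30), 1 for UEF against UCLA (48) and 1 for Monash against UCLA (41). Without covariates the counts were 10 for the 3 sites (124) and 5 for Monash against UCLA (48). Thinned counts gave 3 for UEF against Monash (67) and 1 for UEF against UCLA (59). Sham rats alone gave 3 (38) and 1 (38) for the same pairs. TBI rats alone gave 3 for the 3 sites (58), 0 for UEF against Monash (0 of all 747 rows) and 1 for UEF against UCLA (45). TBI against sham gave 1 at UEF alone (16), 2 without Monash (21) and 2 without UCLA (15). TBIE against TBIN gave 4 at Monash alone (25 of all 741 rows) and 11 at UCLA alone (76 of all 739 rows).

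miR-3473 reversed for TBI against sham without UEF (0.019) and at UCLA alone (0.15), and miR-3551-5p reversed for TBIE against TBIN at UEF alone (-0.61). Without the 3 largest rows in the totals the late share was 1.41%, and detection fell to 93.8 rows at 20 counts and 90.2 rows after thinning. The cause of these changes was not tested. Under settings other than single rats left out, values for single miRNAs kept direction and side of the threshold 290 times, lost the call 61 times and gained it 7 times.

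With single rats left out, members called ranged from 0 to 1 for TBI, 5 to 10 for the 3 sites, 2 to 12 for UEF against Monash, 2 to 6 for UEF against UCLA, 0 to 5 for Monash against UCLA, 0 to 1 for the TBI effect by site and 8 to 17 for TBIE against TBIN by site. The highest counts for UEF against Monash and for TBIE by site came without Monash TBIE 2 and UEF sham 3. TBIE against TBIN stayed at 0. The late share ranged from 0.813% to 0.842%, detection from 104.2 to 104.7 rows and the median level from 19.6 to 20.4 CPM. Where 1 Monash TBIE rat remained, it was assumed to vary like the other groups. Intervals for rows near the 10-count limit are wide at totals of 1162307, and miR-3579 did not pass the count filter of the additive fit.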
